A study of Mus musculus with 6 samples.

Results

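Genes of the pre-mRNA splicing machinery were followed across 6 Illumina mouse arrays of hybridoma RNA, a hybridoma being a fusion of a lymphocyte and a tumour cell that grows as a line. Members were chosen by gene symbol alone: every gene on the array whose symbol began with Hnrnp, Srsf, Sf3a, Sf3b, Snrp or Prpf, or with the older stems Hnrp and Sfrs. The rule found 60 of 19057 named genes, covered by 146 probes: 20 hnRNP genes, 10 SR protein genes, 9 genes of the SF3a and SF3b complexes, 9 genes of snRNP proteins and 12 Prpf genes. A probe was tested if it was detected above background on at least 3 of the 6 arrays, and 54 members had such a probe. Hnrnpa3, Prpf39, Prpf4b, Snrpb2, Snrpe and Srsf12 had none and are given as not detected. Of the arrays, 3 carried RNA of the IL-17-producing hybridoma, clone S2, and 3 RNA of the IL-17-non-producing hybridoma, clone DE3. Both were grown in RPMI with fetal calf serum, and the labels name no treatment, strain or parental cell. Each group is a single clone, so the comparison is between 2 lines. Nothing in the labels tells separate cultures from repeat samples of one culture. The p-values therefore cover the spread among these 6 samples alone, and that spread may be technical.

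The spliceosome removes introns from nascent transcripts. Its snRNPs are small nuclear RNAs coated with Sm and other proteins: SF3a and SF3b hold the U2 snRNP at the branch site, and the Prpf proteins, named after yeast pre-mRNA processing mutants, build and drive the tri-snRNP and the catalytic core. SR proteins mostly bind exonic enhancers and favour splice site use, while hnRNP proteins coat nascent RNA and often oppose it. In lymphocytes this balance is known for setting the isoforms of surface receptors such as CD45.

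Mean bead signal was 445 ± 42.3 on producing arrays and 527 ± 28.5 on non-producing arrays, and 37.2% ± 0.253 and 38.5% ± 0.776 of the probes were detected in the same groups (SD, n = 3 each). The arrays shared a chip with the groups on adjacent positions, so chip position and hybridoma cannot be told apart, and the number of arrays limits the precision. The T cell markers were present: 6 of 7 with a probe were detected on all 6 arrays, with summed linear signals of 34883 to 40404 on producing arrays and 54778 to 57426 on non-producing arrays. Cd247 was higher in the producing hybridoma by a log2 difference of 0.54, and Cd3d, Cd3g and Thy1 were lower at -0.996, -0.67 and -0.47 (all limma adjusted p under 0.05), and the part of this in the splicing results was not tested. No myeloid (6 genes) or fibroblast marker (5 genes) was detected on any array, and of the B and plasma cell markers 3 of 5 and of the erythroid markers 1 of 3 were detected on none. In RNA of whole cultures, fewer cells of a type and less RNA per cell cannot be told apart.

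Differences among the splicing genes ran both ways, with a median absolute log2 difference of 0.18 beside 0.21 over all genes. Of the 54 tested members, 8 rose and 6 fell in the producing hybridoma at an adjusted p under 0.05 (limma, Benjamini-Hochberg over all tested probes), which is 25.9%, beside 36.7% of the 9395 genes tested. The background was 18.1% of genes higher and 18.6% lower. Log2 differences of the members, producing minus non-producing, ran from -0.59 to 0.72 on probes detected in both groups, and Hnrnpu, not above background on any producing array, has only a bound. The median was 0.06, beside 0.00 over all genes. No member measured in both groups reached a 2-fold difference, against 3.63% of all genes past the threshold with one. The 95% interval of the difference lay within 0.5 of 0 on the log2 scale for 41 members, or 75.9%, and for 57% of all genes. The groups of arrays did not overlap for 15 members that were higher and 9 that were lower, beside 51.3% of all genes in either direction. Without non-producing replicate 3, 5 members were higher and 6 lower, or 20.4% beside 28.8% of all genes. With a mean-variance trend and robust variances in limma 15 were higher and 7 lower. That was 40.7% of members beside 41.4% of all genes, so the lower share of members was hardly seen under that setting. Without the filter on dim probes the share of members was the higher one, at 21.7% of 60 members beside 16.4% of 19057 genes. The lower share of members thus depends on the setting. The split between directions rested on the scaling: with only a median scaling of the arrays, and no quantile normalization, the median of all genes moved to -0.23 and that of the members to -0.17, so that 0 members were higher and 14 lower, beside 473 and 3308 genes. Relative to the median of all genes, the members' median was 0.07 under that scaling and 0.06 under quantile normalization.

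**Figure D1:**
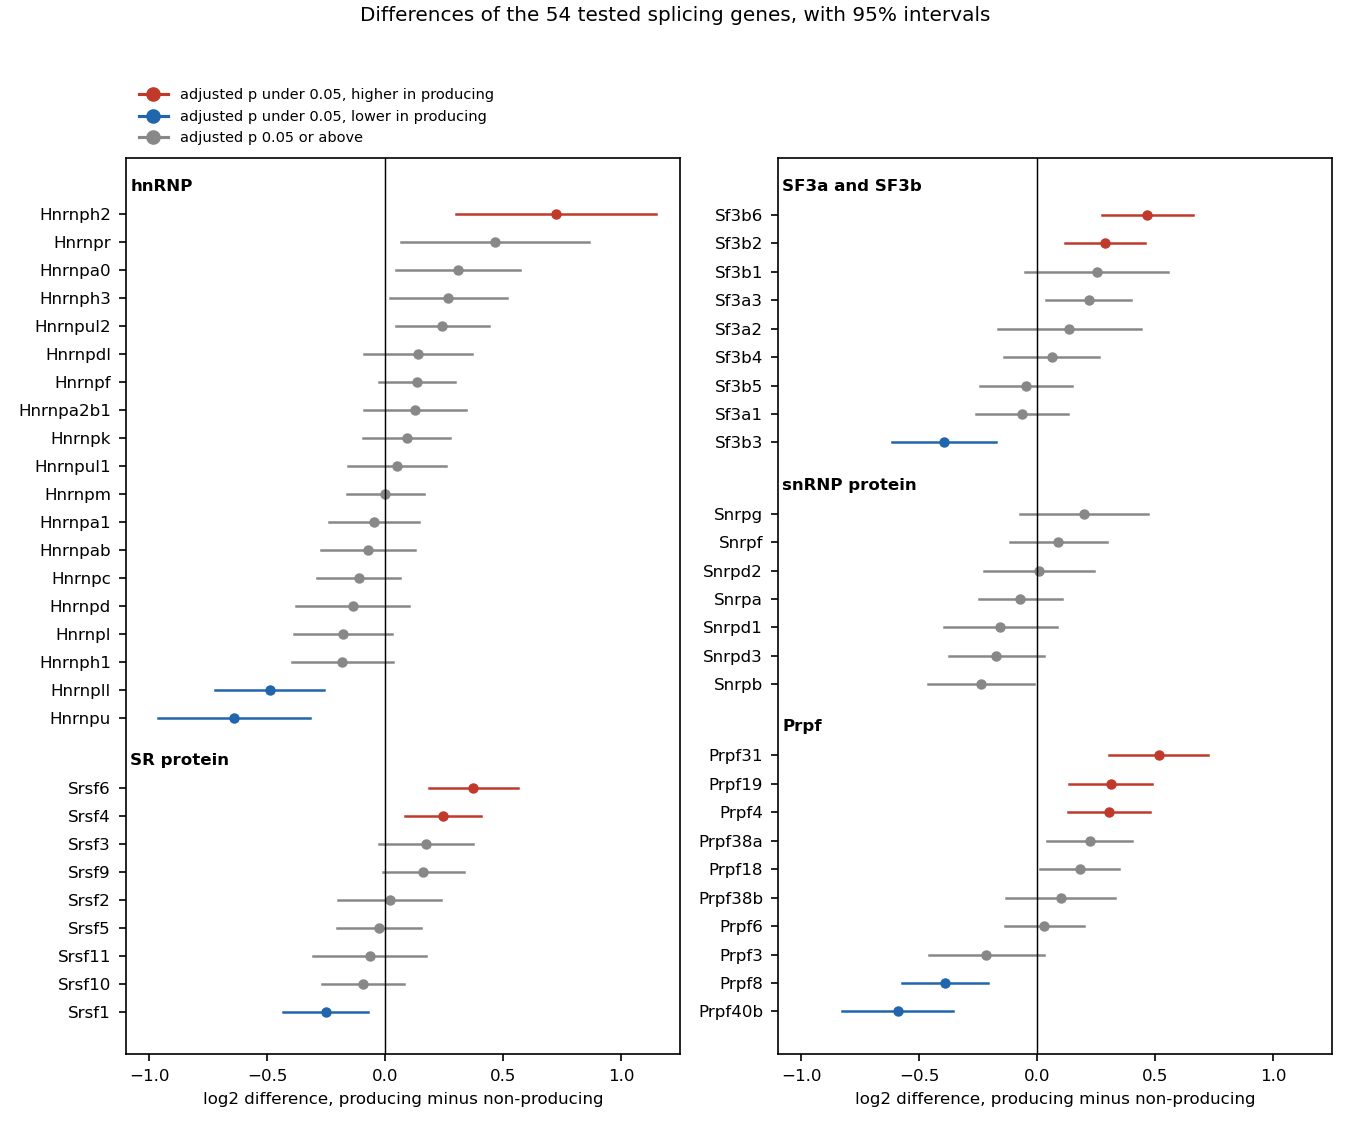
Log2 difference, producing minus non-producing, of each tested member on the x axis, with members grouped by class; points are the estimates, lines their 95% intervals from limma, and colour marks the adjusted p and direction. Estimates lie between -0.59 and 0.72 apart from that of Hnrnpu, which was not above background on producing arrays, with 8 red points right of 0 and 6 blue points left of it.

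In the hnRNP class 1 of 19 tested genes rose and 2 fell, leaving 16 that did not pass, and the median log2 difference was 0.05. Hnrnph2, an X-linked protein that binds G-rich RNA, had normalized log2 signals of 6.40, 6.61 and 6.36 on producing arrays, against 6.04, 5.88 and 5.28 on non-producing arrays. The groups did not overlap, and the third non-producing array was the lowest. Its log2 difference was 0.72 ± 0.18 (SE, limma adjusted p 0.0178), a 1.65-fold rise. Without producing replicate 2 the adjusted p was 0.0549, and with arrays scaled to a common median it was 0.0534. Hnrnph2 is close in sequence to Hnrnph1 and Hnrnpf, so how far its probe tells them apart is uncertain.

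Hnrnpll, an hnRNP L relative known for controlling CD45 exon choice in T cells and plasma cells, had log2 signals of 11.11, 11.08 and 10.97 on producing arrays and 11.72, 11.51 and 11.40 on non-producing arrays. All producing arrays lay below all non-producing ones. It fell by 0.49 ± 0.10 on the log2 scale (SE, limma adjusted p 0.00711), and its other tested probe went the other way, as described with the probe pairs. Ptprc, which encodes CD45, had a log2 difference of -0.17 (limma adjusted p 0.229).

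Hnrnpu, a nuclear matrix protein that binds RNA and chromatin, was above background on 0 of 3 producing arrays and on all 3 non-producing arrays. Its signals were 4.67, 5.05 and 5.05 on producing arrays, not well above background, against 5.66, 5.71 and 5.32 on non-producing arrays (log2). The measured means were 4.92 and 5.56 for the producing and non-producing arrays (limma adjusted p 0.00921 on the measured values). With the lowest detected signal of each producing array as the limit the fall was at least 1.39-fold, a bound that was not itself tested. The fall rests on 1 dim probe, which met the detection filter through the non-producing arrays alone.

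The hnRNP A/B, C and K proteins did not pass the test on their brightest probes. Hnrnpa1 and Hnrnpa2b1, A/B-type proteins that antagonise SR proteins, had log2 differences of -0.05 (95% interval -0.24 to 0.14) and 0.13 (-0.09 to 0.34). Hnrnpc, which binds uridine tracts of nascent RNA, was at -0.11 (-0.29 to 0.06). Hnrnpk, a KH-domain protein that binds C-rich RNA, was at 0.09 (-0.10 to 0.28). Other probes gave other values: the second Hnrnpa1 probe was higher at 0.27 (limma adjusted p 0.0413) and the third Hnrnpk probe at 0.38 (0.0140), and the mean of its tested probes put Hnrnpk at 0.23 (limma adjusted p 0.0480). Processed copies of Hnrnpa1 elsewhere in the genome make its probe uncertain. The widest interval among the hnRNP genes that did not pass was that of Hnrnpr, picked after its values were seen, at 0.47 (0.07 to 0.86, limma adjusted p 0.0723).

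Among the 9 tested SR protein genes were 2 that rose, 1 that fell and 6 that did not pass, and the median log2 difference was 0.02. Srsf6, an SR protein with paired RNA recognition motifs, had log2 signals of 11.39, 11.44 and 11.33 on producing arrays against 11.12, 10.98 and 10.94 on non-producing arrays. The groups were apart on every array, and the gene rose by 0.37 ± 0.08 on the log2 scale (SE, limma adjusted p 0.00957), or 1.30-fold. Srsf4, a close relative of Srsf6, had signals of 10.91, 10.86 and 10.89 on producing arrays and 10.64 on each non-producing array, a log2 difference of 0.25 ± 0.07 (SE, limma adjusted p 0.0279). Srsf1, the first SR protein to be described and a general splicing activator, had 13.78, 13.79 and 13.83 on producing arrays and 14.13, 14.07 and 13.95 on non-producing arrays, and fell by 0.25 ± 0.08 on the log2 scale (SE, limma adjusted p 0.0398). The calls of Srsf4 and Srsf1 were less stable than that of Srsf6: Srsf4 lost its call whichever array was left out (adjusted p 0.0533 to 0.0870), and Srsf1 lost it without each array but non-producing replicate 3 (0.0667 to 0.108). The other tested probe of Srsf1 was lower at -0.32 (limma adjusted p 0.0193), while that of Srsf6 was at 0.20 and did not pass (0.197). Srsf2, which marks nuclear speckles, was at 0.02 (95% interval -0.20 to 0.24) and Srsf3, which also works in mRNA export, at 0.17 (-0.03 to 0.37) on their brightest probes.

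The SF3a and SF3b genes encode the subunits that settle the U2 snRNP at the branch site. All 9 genes were tested, of which 2 rose and 1 fell while 6 did not pass, and the median log2 difference was 0.14. Sf3b6, the small subunit that lies at the branch site adenosine, had log2 signals of 7.52, 7.65 and 7.60 on producing arrays, against 7.24, 7.08 and 7.05 on non-producing arrays. It rose by 0.47 ± 0.08 on the log2 scale (SE, limma adjusted p 0.00388), or 1.38-fold, without overlap. Sf3b2, an SF3b subunit that contacts RNA near the branch site, had 12.15, 12.06 and 12.14 on producing arrays and 11.83, 11.86 and 11.80 on non-producing arrays, a log2 difference of 0.29 ± 0.07 (SE, limma adjusted p 0.0177). Sf3b3, a scaffold subunit of the same complex, went the other way. It had 11.13, 11.12 and 11.28 on producing arrays and 11.42, 11.69 and 11.61 on non-producing arrays, and fell by 0.40 ± 0.10 on the log2 scale (SE, limma adjusted p 0.0145). The other tested probe of Sf3b3, a dim one, was at -0.10 and did not pass. Without non-producing replicate 2 the adjusted p of Sf3b3 was 0.0538, and that of Sf3b2 was 0.0621 without non-producing replicate 3 and 0.0625 without producing replicate 1. Sf3a1, the U2 subunit that also contacts U1, was at -0.06 (95% interval -0.26 to 0.13). Sf3b1, the core of SF3b that clamps the branch helix, was read from a probe detected on 2 producing and 2 non-producing arrays, at 0.25 (-0.05 to 0.55).

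No snRNP protein gene passed in either direction by limma, with 7 tested and 1 at an unadjusted p under 0.05. With a mean-variance trend and robust variances in limma, 1 of the 7 passed. The 7 log2 differences ran from -0.24 to 0.20 with a median of -0.07, and all 7 intervals lay within 0.5 of 0. The gene at an unadjusted p under 0.05 was Snrpb, which encodes the Sm proteins B and B′. It had log2 signals of 12.91, 12.89 and 12.68 on producing arrays and 13.20, 13.00 and 13.00 on non-producing arrays, and a log2 difference of -0.24 (95% interval -0.46 to -0.02, limma adjusted p 0.0942). Snrpa, the U1 snRNP protein that binds a stem-loop of U1 RNA, was at -0.07 (-0.25 to 0.10).

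In the Prpf class 3 of 10 tested genes rose and 2 fell, leaving 5 that did not pass, and the median log2 difference was 0.14. Prpf31, which locks the U4/U6 snRNP into the tri-snRNP, had log2 signals of 6.36, 6.16 and 6.07 on producing arrays, against 5.69, 5.67 and 5.69 on non-producing arrays. It rose by 0.52 ± 0.09 on the log2 scale (SE, limma adjusted p 0.00351), or 1.43-fold, with no overlap. Prpf19, the ubiquitin ligase at the core of the complex that activates the spliceosome, had 12.29, 12.28 and 12.33 on producing arrays and 11.92, 12.06 and 11.99 on non-producing arrays, a log2 difference of 0.31 ± 0.08 (SE, limma adjusted p 0.0150). The other tested probes of Prpf19 were at 0.17 and 0.18 and did not pass. Prpf4, a U4/U6 snRNP protein, had 9.27, 9.21 and 9.16 on producing arrays and 8.96, 8.91 and 8.86 on non-producing arrays, a log2 difference of 0.31 ± 0.08 (SE, limma adjusted p 0.0155). Without non-producing replicate 3 or producing replicate 1 the adjusted p of Prpf4 was 0.0581 and 0.0583.

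Prpf8, the tri-snRNP protein that cradles the catalytic RNA of the spliceosome, fell while Prpf31 and Prpf4 rose. Its log2 signals were 10.87, 10.91 and 10.87 on producing arrays and 11.38, 11.20 and 11.24 on non-producing arrays, with no overlap. It fell by 0.39 ± 0.08 on the log2 scale (SE, limma adjusted p 0.00678), or 1.31-fold, and its other tested probe also fell, at -0.41. Prpf40b, a relative of the yeast protein Prp40 that works with the U1 snRNP, had 6.21, 6.37 and 6.35 on producing arrays and 7.0, 6.99 and 6.71 on non-producing arrays. It fell by 0.59 ± 0.10 on the log2 scale (SE, limma adjusted p 0.00316), or 1.51-fold, again with no overlap. Prpf8 and Prpf40b passed in the same direction under all 10 alternatives and without each array in turn. Hnrnpu passed under the 9 alternatives run for it. Its probe met the detection filter through the non-producing arrays alone, and it was not tested where detection on all 6 arrays was asked, so its calls cannot be set beside these.

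**Figure D2:**
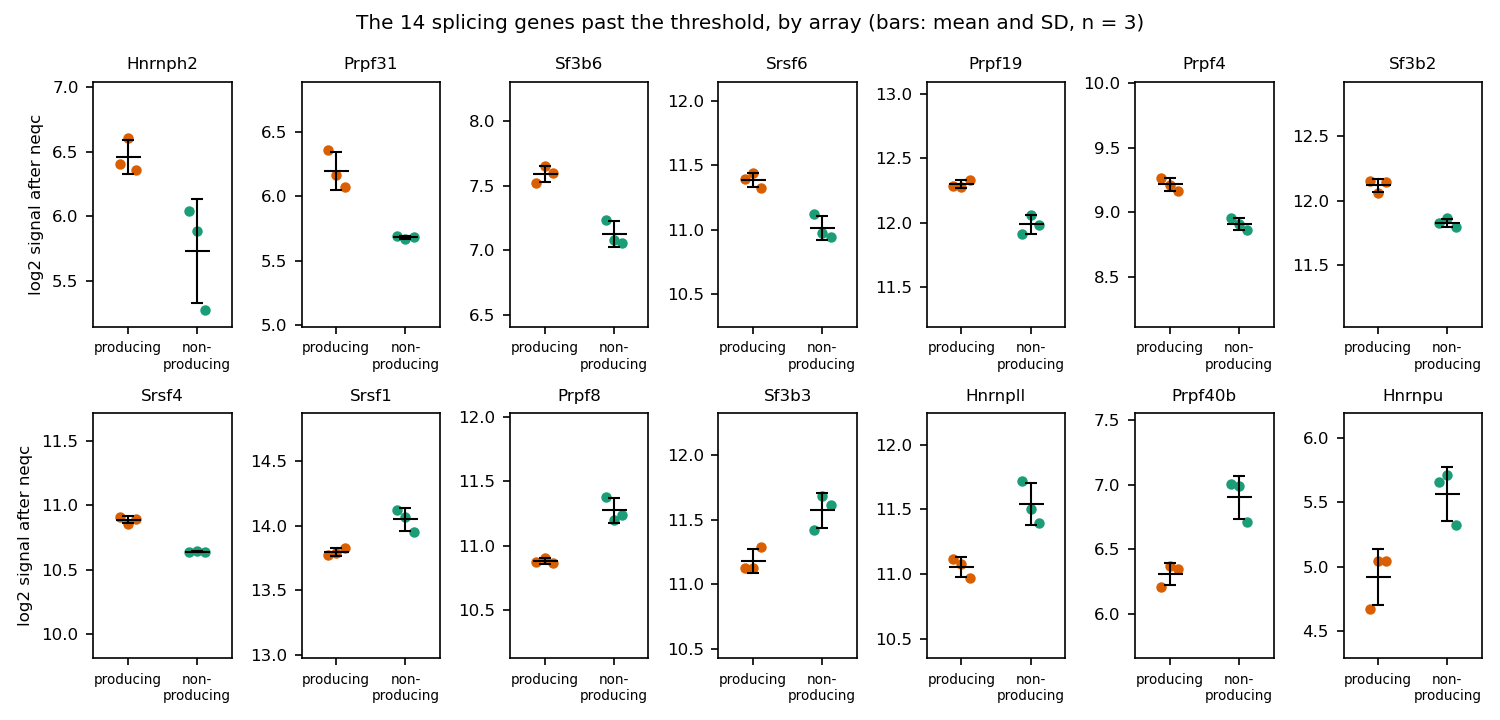
Normalized log2 signal (y axis) of each of the 14 members at an adjusted p under 0.05, on producing and non-producing arrays; points are arrays, bars the mean and SD (n = 3), and every panel spans the same log2 range. In each panel the 3 producing points lie wholly above or wholly below the 3 non-producing points, and Hnrnph2 has the widest non-producing spread.

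Promoters are shown for the 2 largest rises, Hnrnph2 and Prpf31, and for Prpf8 and Prpf40b, which fell under every setting run. They come from RefSeq on GRCm38.p6, from 250 bases before to 50 bases after the start, and 53 of the 60 members matched an entry. They are chrX:134600929-134601228 for Hnrnph2, chr7:3629735-3630034 for Prpf31, chr11:75486527-75486826 for Prpf8 and chr15:99294991-99295290 for Prpf40b, all on the plus strand. Capitals mark the motifs searched on both strands: the GC box GGGCGG, the CCAAT box CCAAT, the ETS core CCGGAA and the TATA box TATAAA, which can overlap at their ends but do not contain one another.
Hnrnph2: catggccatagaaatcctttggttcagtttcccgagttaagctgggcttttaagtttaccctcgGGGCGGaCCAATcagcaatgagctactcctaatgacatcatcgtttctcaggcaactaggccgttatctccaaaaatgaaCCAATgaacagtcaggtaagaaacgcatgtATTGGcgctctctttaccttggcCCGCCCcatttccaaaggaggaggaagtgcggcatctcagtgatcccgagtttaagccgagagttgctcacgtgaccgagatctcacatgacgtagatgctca
Prpf31: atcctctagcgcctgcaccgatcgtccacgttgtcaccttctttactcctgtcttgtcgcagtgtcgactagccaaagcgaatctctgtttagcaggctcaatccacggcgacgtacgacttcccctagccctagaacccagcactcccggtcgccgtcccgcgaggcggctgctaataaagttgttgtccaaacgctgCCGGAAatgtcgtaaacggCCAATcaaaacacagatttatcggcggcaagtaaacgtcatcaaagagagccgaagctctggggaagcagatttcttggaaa
Prpf8: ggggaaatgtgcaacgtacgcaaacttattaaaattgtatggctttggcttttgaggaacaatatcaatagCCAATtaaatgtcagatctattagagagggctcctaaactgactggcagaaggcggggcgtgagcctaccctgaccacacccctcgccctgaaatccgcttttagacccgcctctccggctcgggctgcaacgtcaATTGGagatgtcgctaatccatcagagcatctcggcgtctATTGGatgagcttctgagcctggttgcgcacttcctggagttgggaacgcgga
Prpf40b: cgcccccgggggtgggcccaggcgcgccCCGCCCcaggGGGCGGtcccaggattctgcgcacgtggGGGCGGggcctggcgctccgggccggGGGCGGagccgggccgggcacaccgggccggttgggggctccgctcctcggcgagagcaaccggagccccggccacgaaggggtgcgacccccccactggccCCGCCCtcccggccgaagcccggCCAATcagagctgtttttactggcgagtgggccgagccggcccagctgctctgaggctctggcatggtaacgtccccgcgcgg
Hnrnph2 holds 2 GC boxes and 3 CCAAT boxes, Prpf31 an ETS core and a CCAAT box, Prpf8 3 CCAAT boxes, and Prpf40b 5 GC boxes and 1 CCAAT box. Over all 70 promoter entries of members, 67.1% held a GC box, beside 35.7% of the 32851 entries in the table. An ETS core was in 48.6% of the members' entries and 14.9% of all, a CCAAT box in 50% and 37.4%, and a TATA box in 8.57% and 13.6%. The counts by direction are of genes, each taken as holding a motif if any of its entries did. An ETS core was in 6 of the 8 members that rose and 3 of the 5 with an entry that fell, beside 28 of the 53 members with an entry. A GC box was in 4 of 8 and 3 of 5, beside 37 of 53. These are matches of letters, not sites, and the table gives several starts for some genes.

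Chromosome position moved with some of the rises. The median log2 difference over all tested genes was 0.27 on chromosome 4, 0.30 on chromosome 17 and 0.31 on chromosome 19, beside 0.00 over the genome. Prpf4 and Srsf4 lie on chromosome 4, and Prpf19 and Sf3b2 on chromosome 19. With the median of its chromosome taken from each gene, their log2 differences were 0.03, -0.03, 0.00 and -0.02, and none passed (limma adjusted p 0.785 to 0.982). Hnrnpll lies on chromosome 17, and its brightest probe fell against the direction of its neighbours. That probe was at -0.79 with the chromosome median removed (limma adjusted p 0.000833). The other tested probe of Hnrnpll was at 0.34 without that step (limma adjusted p 0.0578), beside the chromosome median of 0.30. Hnrnph2, Prpf31, Sf3b6 and Srsf6 were still higher under that setting, where 4 members were higher and 7 lower. Srsf1 did not pass there (limma adjusted p 0.0634), while Hnrnpm and Srsf10 passed as lower. Without that step Hnrnpm, on chromosome 17, was at 0.00 and Srsf10, on chromosome 4, at -0.09, and neither passed. Their calls as lower thus rest on the chromosome medians that were subtracted. Of the other tested Srsf10 probes, some were higher at 0.66 and 0.47, and another was at 0.10 and did not pass.

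**Figure D3:**
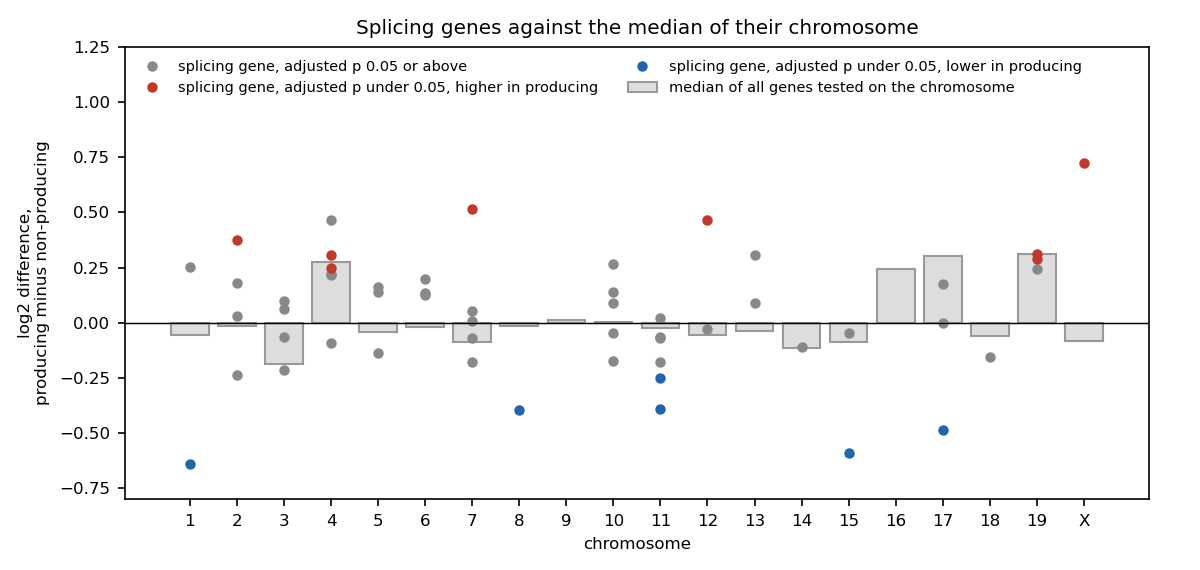
Log2 difference, producing minus non-producing (y axis), of each tested member by chromosome (x axis); bars give the median of all tested genes on the chromosome and colour the adjusted p and direction. The 4 red points on chromosomes 4 and 19 lie at or near their bars. The blue point on chromosome 17, the brightest Hnrnpll probe, lies well below its bar.

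Many members had several probes, and where each binds its transcript is not known here. Of the 115 member probes tested, 23 were higher and 8 lower, beside 17.3% and 17.6% of single named probes (34.9% in either direction). There were 36 members with more than 1 tested probe, and all probes had the same sign in 21. Of the 10 called members with more than 1, 4 had another probe past the threshold in the same direction, and in 0 members did probes pass in opposite directions. Those with such a probe were Prpf8, Prpf31, Sf3b6 and Srsf1. Hnrnpll, Prpf4, Prpf19, Prpf40b, Sf3b3 and Srsf6 had none. In 9 members the brightest probe did not pass and another did, each time higher: Hnrnpa1, Hnrnpdl, Hnrnph1, Hnrnpk, Prpf38a, Sf3b4, Srsf2, Srsf3 and Srsf10. These counts by gene were not made over all genes with several probes, so they cannot be read as particular to the members. Taking the mean over a gene's tested probes, 13 members were higher and 5 lower, or 33.3% beside 37.8% of all genes.

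To ask whether probes of a gene differed from each other, the log2 ratio of each tested probe over the brightest probe of its gene was compared between the groups within arrays. This comparison was added after the data were seen, and its genes were picked by it. Of 61 member pairs 8 passed (limma, Benjamini-Hochberg over 5400 pairs of all genes), or 13.1%, beside 11.1% of all pairs.

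Hnrnpll gave the widest gap. Relative to the non-producing mean, the log2 ratio of its second probe over its brightest was 0.72, 0.95 and 0.82 on producing arrays and 0.04, -0.16 and 0.11 on non-producing arrays. The difference was 0.83 ± 0.12 on the log2 scale (SE, limma adjusted p 0.00393): the second probe itself was at 0.34 (adjusted p 0.0578) and the brightest at -0.49. Both are listed under the same transcript. Averaging the 2 probes gave a gene value of -0.07 (limma adjusted p 0.603), so the fall of Hnrnpll depends on the probe read.

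Srsf10, an SR protein that turns into a splicing repressor when it loses its phosphates, had 2 probes apart from its brightest. For the first the log2 ratios were 0.68, 0.85 and 0.72 on producing arrays and -0.02, -0.15 and 0.17 on non-producing arrays, a difference of 0.75 ± 0.12 (SE, limma adjusted p 0.00593). The other differed by 0.56 ± 0.14 (SE, limma adjusted p 0.0363). Taken alone, these probes were higher by 0.66 and 0.47, while the brightest was at -0.09, and both are listed under another transcript than the brightest.

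The pairs of Hnrnpll and of the first Srsf10 probe passed under all 12 other settings. The rest passed under fewer: a Prpf40b probe (0.55 ± 0.12) under 8, the other Srsf10 probe under 6, a Prpf31 probe (-0.55 ± 0.14) under 6, probes of Hnrnph1 (0.51 ± 0.13 and 0.46 ± 0.12) under 5 and 4, and a Srsf2 probe (0.43 ± 0.11) under 3 (difference ± SE, log2 scale). The Prpf40b and Prpf31 probes were themselves near 0, at -0.04 and -0.03. The Prpf40b probe was dim, with mean log2 signals of 5.22 on producing and 5.26 on non-producing arrays, and was detected on 5 arrays. The lowest detected signals of the arrays were 4.97 to 5.10. How far low signal narrowed the difference of that probe, and so widened the gap, was not tested. The third probe of Prpf40b was at -0.25 and did not pass, and the third probe of Prpf31 was higher at 0.48 (limma adjusted p 0.0124), as its brightest was. Without 1 array in turn, 2 to 5 member pairs passed, with 2 left when non-producing replicate 3 or producing replicate 2 was out, 3 without producing replicate 3, 4 without non-producing replicate 1 or 2, and 5 without producing replicate 1.

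**Figure D4:**
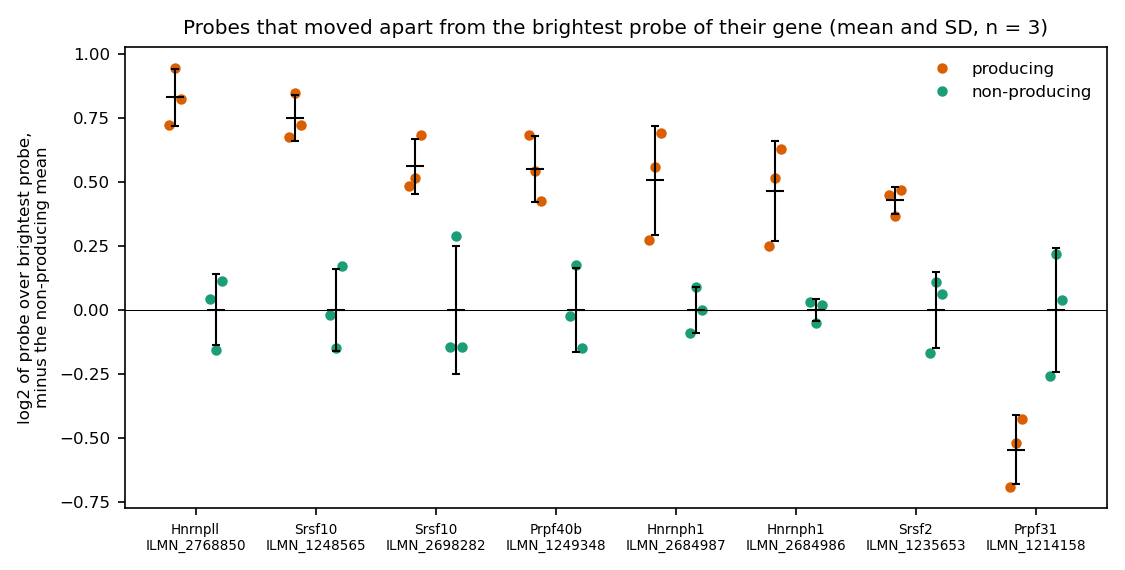
Log2 ratio of a probe over the brightest probe of its gene, minus the non-producing mean (y axis), for the 8 member probe pairs at an adjusted p under 0.05 (x axis, gene and probe); points are arrays, bars the mean and SD (n = 3). The groups overlap in no pair: producing points lie above the non-producing points in 7 pairs and below them for the Prpf31 probe.

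Other spliceosome genes were read from a list of 67, of which 61 had a probe and 54 were tested. Of these 12 rose and 3 fell, or 27.8% beside 36.7% of all genes (18.1% higher and 18.6% lower). The median log2 difference was 0.11. Dhx16, an RNA helicase that remodels the spliceosome before catalysis, had log2 signals of 6.09, 5.90 and 6.16 on producing arrays and 5.32, 5.28 and 5.03 on non-producing arrays, a rise of 0.84 ± 0.11 (SE, limma adjusted p 0.000752). It was detected on 3 producing and 2 non-producing arrays. U2af1l4, a relative of the U2AF subunit that reads the 3′ splice site, rose by 0.61, the cyclophilin Ppil1 by 0.59 and the spliceosome component Syf2 by 0.57 on the log2 scale (limma adjusted p 0.00199, 0.00299 and 0.00245). Of the 12 rises 8 lie on chromosomes 4, 17 or 19, as do 14 of the 54 tested genes of the list, with Dhx16 and Ppil1 on chromosome 17 and Syf2 on chromosome 4. The medians of all tested genes were raised on these chromosomes. The share of all higher genes that lie on them was not counted, so the count cannot be read as particular to the list. With chromosome medians removed 8 of the list were higher and 1 lower. Dhx16 was then at 0.54 and Syf2 at 0.30 and both passed, while Ppil1 was at 0.28 and did not (limma adjusted p 0.00764, 0.0463 and 0.0673). With any 1 array left out, 11 to 13 of the list were higher and 1 was lower.

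Other splicing regulators, 44 in the list with 43 on the array and 38 tested, gave 4 that rose and 8 that fell. That was 31.6% beside 36.7% of all genes, with a median log2 difference of -0.10. Tardbp, which encodes the RNA-binding protein TDP-43, had log2 signals of 7.34, 7.05 and 7.42 on producing arrays and 6.35, 6.31 and 6.49 on non-producing arrays, and rose by 0.89 ± 0.11 (SE, limma adjusted p 0.000648). Mbnl1, a muscleblind protein that switches splicing patterns during development, had 12.98, 12.99 and 12.77 on producing arrays and 13.82, 13.59 and 13.53 on non-producing arrays. It fell by 0.73 ± 0.11 on the log2 scale (SE, limma adjusted p 0.00129). Ptbp3, a polypyrimidine tract binding protein, rose by 0.56 and the U-rich RNA binder Tial1 fell by 0.51 (limma adjusted p 0.00151 and 0.0234). Tardbp and Ptbp3 lie on chromosome 4, as do 3 of the 4 regulators that rose. Of the 38 tested genes of the list, 5 lie on chromosomes 4, 17 or 19. Here too the share over all higher genes was not counted. Mbnl1 lies on chromosome 3, where the median of all tested genes was -0.19. With chromosome medians removed 3 of the list were higher and 4 lower, with Tardbp at 0.61 and Ptbp3 at 0.28 (limma adjusted p 0.00463 and 0.0351). Mbnl1 was then at -0.54 and passed, while Tial1 was at -0.42 and did not (limma adjusted p 0.00656 and 0.0527). Without any 1 array, 3 to 5 of the list were higher and 4 to 6 lower, and Tial1 lost its call without 4 of the arrays in turn.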

How the data were processed

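RNA of 3 samples of each hybridoma was, per the labels, made into biotinylated cRNA and read on 1 Illumina chip. The authors deposited bead signal intensity on a linear scale without normalization, with a detection score, a fraction between 0 and 1, beside each value. The header calls the score a detection p-value, but it rises with signal and was taken as the fraction left after subtracting that p-value from 1. The authors' second table, also deposited as intensity, was quantile normalized without background subtraction, judged from its values. The scanner's background setting is not given in the sources used.

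The signals were processed with limma 3.58.1 in R 4.3.3: neqc with inferred negative controls and an offset of 16, then lmFit and eBayes, two-sided, without covariates. Probes with a detection p-value under 0.05 on at least 3 of 6 arrays were tested (17445 of 45281), with Benjamini-Hochberg over all of them and a threshold of 0.05. Each gene took the value of whichever tested probe had the highest mean normalized signal, and a log2 difference is producing minus non-producing. Symbols came from the platform annotation, with 1 symbol for 34885 probes, several for 18 and none listed for 10378. Chromosomes came from the RefSeq gene table of GRCm38.p6.

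Members and lists were chosen with earlier results of these data known. Named were up to 3 called members in each direction in each class, a set of widely studied members whatever their values, genes detected in one hybridoma alone, and up to 4 genes of each other list; further names were picked after their values were seen. Same-numbered samples did not deviate together (correlations -0.04, -0.16 and 0.09), beside -0.20 to 0.26 for differently numbered ones. With 3 samples per group this cannot show whether the numbers pair the samples, and the main fit used no pairing. The fit was tested on simulated data with 200 of 17445 probes changed. It recovered 0% of changes of 0.3 on the log2 scale, 31% of 0.5 and 89.5% of 1. Far fewer probes were changed there than passed in the data, so these shares do not carry over directly. Small differences can still be missed, and a member that did not pass is not shown to be unchanged. Alternatives covered background, scaling, the authors' values, the filter, the probe rule, variance model, replicate block, chromosome medians and leaving out each array. Columns of per-sample values that matched no sample numbered 0.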

Additional observations from a re-analysis of the deposited data

How the results depend on the processing

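Among the 14 called members, Prpf8 and Prpf40b kept their call under all settings, and none of the 14 passed in the opposite direction under any setting. Hnrnpu kept its call where it was tested, but its probe met the detection filter through the non-producing arrays alone. Srsf10, not called, passed as lower with chromosome medians removed (-0.37) and as higher with the mean of its probes (0.28). Member genes past the threshold numbered 22 with a mean-variance trend and robust variances, or 40.7% beside 41.4% of all genes. Those higher numbered 13 with normexp at an offset of 50, 13 with the mean of a gene's probes, 15 with trend and robust variances, 4 with chromosome medians removed and 5 to 8 without 1 array. With arrays scaled to a common median, 0 members were higher and 14 lower (473 and 3308 of all genes), with 5 hnRNP, 1 SF3a and SF3b, 3 snRNP and 3 Prpf genes and 20 other regulators past the threshold. Under normexp, no background correction or the authors' processed values, 5 hnRNP genes and 1 snRNP gene passed, and with trend and robust variances 6 and 1. Without chromosome medians, 3 Prpf genes, 9 other spliceosome genes and 7 other regulators passed, Sf3b2 turned to -0.020 and Srsf4 to -0.029. Srsf4 was at -0.019 with arrays scaled to a common median. The cause of these moves was not tested. Leaving out 1 array gave 1 to 2 SR protein genes and 7 to 11 other regulators. The replicate block gave 13 members (12 of the 14 kept, Srsf1 and Srsf4 lost), 1 SR protein gene, 3019 of all genes, and 4 member probe pairs. Whether the numbers pair the samples is not known. Probe pairs that differed numbered 2 to 5 among members and 300 to 441 over all genes without 1 array, and over all genes 1050 with normexp, 994 without background correction and 992 with the authors' values. Low signal limits Hnrnpu and Sf3b1, read from dim probes, the dim Prpf40b probe among the pairs, and the members not detected.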

Other observations

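Some smaller groups within the other splicing lists are given here, picked after their values were seen. The CLK kinases phosphorylate SR proteins: Clk1 fell by 0.37 and Clk2 by 0.31 on the log2 scale (limma adjusted p 0.0170 and 0.0230), while Clk3 and Clk4 were at 0.07 and 0.17 and did not pass. Their counterparts Srpk1 and Srpk2, which phosphorylate SR proteins mainly in the cytoplasm, were at 0.08 and -0.20 and did not pass. The 2 poly(C)-binding proteins both fell, Pcbp1 by 0.43 and Pcbp2 by 0.33 (limma adjusted p 0.00885 and 0.0280), and so did Mbnl2, a relative of Mbnl1, by 0.35 (0.00974).

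Of the Lsm proteins, which form a ring on U6 RNA, Lsm2 rose by 0.51 and Lsm4 by 0.30 (limma adjusted p 0.00371 and 0.0270), and Lsm3, Lsm5, Lsm6 and Lsm8 lay between -0.09 and -0.02 and did not pass. Rbm8a, a core protein of the exon junction complex, rose by 0.43 and the associated Rnps1 by 0.40 (limma adjusted p 0.00909 and 0.00824), while the core helicase Eif4a3 was at 0.13 and did not pass. Lsm2 and Rnps1 lie on chromosome 17, where the median of all tested genes was 0.30.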
